A study of Homo sapiens with 4 samples.

Results

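The 37 genes described here serve protein folding, quality control and degradation in the endoplasmic reticulum (ER). They were taken by symbol, without regard to their values, from a table of 57659 rows. All 37 symbols were found, on 42 rows, and the 5 extra rows, further copies of ATF6B, HYOU1 and MANF, held no reads. Every one of the 37 passed the filter on low values, which kept the 15640 genes with a value of at least 10 in at least 2 libraries. Expression was measured by RNA sequencing in 786-0 cells, an established human line from a clear cell renal cell carcinoma. One group of 2 libraries came from cells given siRNA against SLFN5, a member of the Schlafen family, and the other group of 2 came from cells given control siRNA. Both groups are transient transfections of 1 line, the time after transfection and the number of siRNA sequences are not stated in the labels, and the sources used here do not say if the libraries of 1 group stem from different dishes. The series note speaks of triplicates while 2 libraries a group are labelled, and it is not stated whether a library pools several cultures. All p-values below therefore rest on the spread between these libraries, pooled in part over genes, and that spread may be technical.

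The values are equalised counts, that is, counts adjusted by the authors to a common library size. The libraries were prepared from poly(A)-selected RNA with a kit that does not mark strand. Depth, recovered from the values as whole counts, was 17117659 and 14700669 counts in the SLFN5 siRNA libraries, against 31905328 and 13187517 counts in the control libraries. SLFN5 itself, on the same scale, had 167 and 118 in the SLFN5 siRNA libraries, against 420.3 and 353 in the control libraries. Its log2 change was -1.45 (SE 0.21, adjusted p = 0.000524, limma with Benjamini-Hochberg adjustment over all genes tested), and the mean was 36.8% of the control mean. PAX8, VIM, KRT8, KRT18, CD70 and EPAS1, markers of renal carcinoma cells, were read in all 4 libraries, while CA9 and NDUFA4L2, which mark many clear cell carcinomas, held 4 and 23 counts over the 4 libraries together. Of the renal markers, EPAS1 (log2 change 0.55, adjusted p = 0.0358) and LHX1 (1.14, adjusted p = 0.00077) were higher after SLFN5 siRNA and VIM was lower (-0.46, adjusted p = 0.014). PTPRC, CD3E, MS4A1, PECAM1, COL3A1 and DCN, which define leukocytes, endothelium and fibroblasts, held 0 or 1 count each over the 4 libraries. Other markers on these lists were read at low levels, with 257 counts for LUM, 202 for COL1A1, 76 for PDGFRB, 64 for ITGAM and 57 for ESAM over the 4 libraries, and PDGFRB was lower after SLFN5 siRNA (log2 change -1.82, adjusted p = 0.0336). Summed over the markers with any read, equalised counts were 37.8 and 23.7 for 5 leukocyte genes after SLFN5 siRNA, against 18.5 and 10.7 after control siRNA. The sums were 101 and 70.4 for 6 fibroblast genes after SLFN5 siRNA, against 184.7 and 109.9 after control siRNA, and 23.6 and 45.7 for 5 endothelial genes after SLFN5 siRNA, against 9.54 and 23.1 after control siRNA. The part of these marker differences in the results was not tested. In bulk RNA, fewer cells of a kind and less RNA per cell cannot be told apart.

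Proteins bound for the cell surface or for secretion enter the ER through the SEC61 channel, which is assisted by the translocon-associated protein (TRAP) complex. Inside, the lectins calnexin and calreticulin hold newly glycosylated chains while protein disulfide isomerases form and shuffle their disulfide bonds. Chains that fail to fold are recognised by mannosidase-like EDEM proteins and lectins such as OS9, passed to the HRD1 ubiquitin ligase with its SEL1L adaptor and derlin partners, and drawn back into the cytosol for the proteasome. When unfolded chains accumulate, the membrane sensors IRE1 (ERN1), PERK (EIF2AK3) and ATF6 start the unfolded protein response. IRE1 splices XBP1 mRNA, PERK phosphorylates the initiation factor eIF2alpha, and ATF6 is cut to release a transcription factor. ATF6 with the factor NF-Y, and XBP1, bind ER stress response elements in the promoters of chaperone genes.

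Those elements are shown here because they mark which of the 37 genes carry the classical sequence read by ATF6 and XBP1. Promoters of 300 bases, from 250 before to 50 after the annotated start, came from RefSeq (GRCh38.p14) and were listed for 33 of the 37 genes. DERL1, DERL3, PDIA3 and SEC24D were not among them. The ER stress response element (ERSE) was searched on both strands as CCAAT, any 9 bases, then CCACG. It lay in 27 of 35116 promoters (0.0769%), and 6 of the 37 genes had it, CANX in 3 of its 4 listed promoters and PDIA6 and XBP1 in 1 of 2. For each, 1 site is shown. Each line gives the gene, then the strand of the gene read 5′ to 3′ with the element in capitals. Where the capitals start with CGTGG the element lies in reverse.
CALR (chr19:12938364-12938422, plus strand): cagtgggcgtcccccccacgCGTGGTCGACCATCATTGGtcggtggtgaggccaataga
CANX (chr5:179698758-179698816, plus strand): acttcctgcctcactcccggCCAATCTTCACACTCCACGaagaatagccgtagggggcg
CRELD2 (chr22:49918534-49918592, plus strand): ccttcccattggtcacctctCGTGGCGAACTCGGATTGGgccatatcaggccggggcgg
PDIA6 (chr2:10812833-10812891, minus strand): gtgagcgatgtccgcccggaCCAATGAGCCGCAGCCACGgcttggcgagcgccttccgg
SERP1 (chr3:150546690-150546746, minus strand): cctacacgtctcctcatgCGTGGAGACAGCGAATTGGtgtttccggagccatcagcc
XBP1 (chr22:28800583-28800641, minus strand): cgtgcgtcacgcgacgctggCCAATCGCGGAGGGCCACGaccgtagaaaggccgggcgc
For reference, the element of HSPA5, the ER chaperone BiP and the best known target of this response, is given with them.
HSPA5 (chr9:125241371-125241429, minus strand): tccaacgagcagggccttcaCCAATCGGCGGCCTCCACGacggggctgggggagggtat

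The second form of the element, ERSE-II, was searched as ATTGG, any 1 base, then CCACG on both strands, and lay in 19 of 35116 promoters (0.0541%). It was found in 3 of the 37 genes, with 2 copies in HYOU1, and is shown because it sits in the promoter of HERPUD1, the gene in which it was described.
HERPUD1 (chr16:56932005-56932055, plus strand): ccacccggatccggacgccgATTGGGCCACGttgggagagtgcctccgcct
SDF2L1 (chr22:21642094-21642144, plus strand): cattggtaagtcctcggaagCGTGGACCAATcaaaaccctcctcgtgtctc
HYOU1, the copy nearer the start (chr11:119057254-119057304, minus strand): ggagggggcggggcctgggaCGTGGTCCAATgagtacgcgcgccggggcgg
HYOU1, the copy farther from it (chr11:119057360-119057410, minus strand): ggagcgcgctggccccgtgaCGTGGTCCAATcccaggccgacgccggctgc
The core of the XBP1-binding unfolded protein response element, TGACGTGG on either strand, lay in 256 promoters (0.729%). In the 37 genes it was found in SSR3, in 1 of its 3 listed promoters, and in HYOU1, where it overlaps the farther ERSE-II copy.
SSR3 (chr3:156554139-156554186, minus strand): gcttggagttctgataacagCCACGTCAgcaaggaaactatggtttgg
The cyclic AMP response element TGACGTCA lay in 649 promoters (1.85%), among them that of CREB3L2. A match of letters is a description of the promoter and not of binding.

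**Figure D1:**
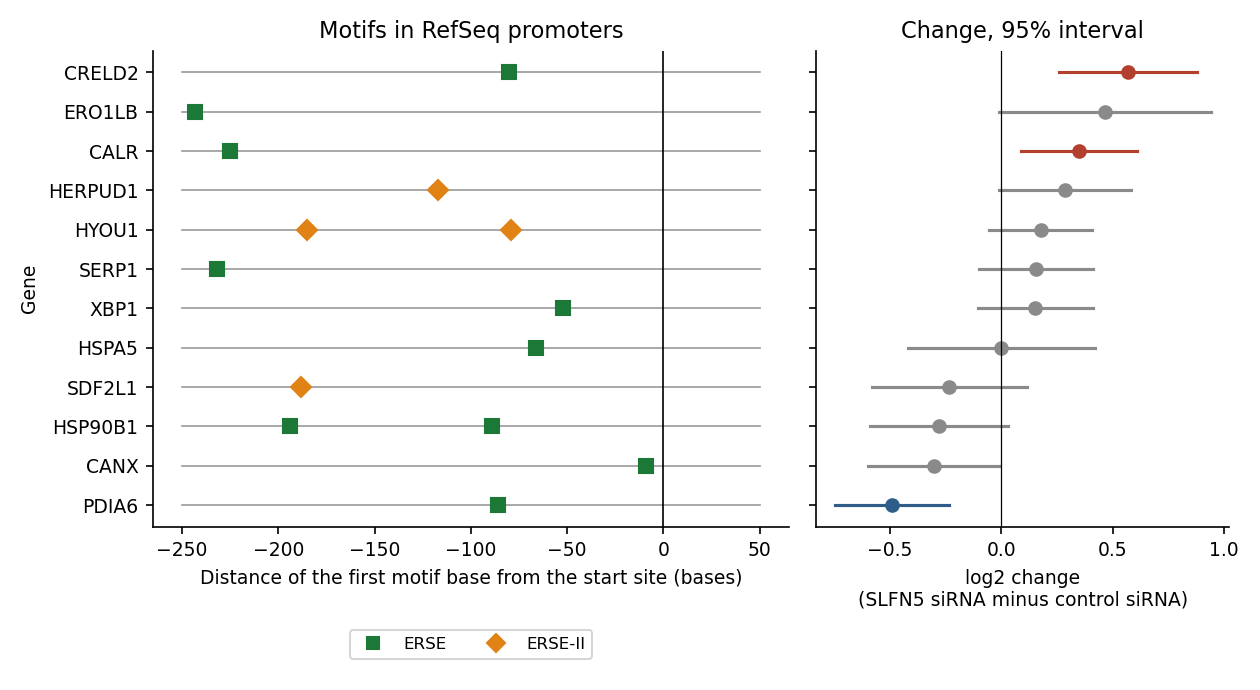
Left, the position of each ERSE (squares) and ERSE-II (diamonds) in the promoter of 12 ER genes, as the distance of the element's first base from the RefSeq start site (0, in bases). Right, the log2 change of the same genes, SLFN5 siRNA minus control siRNA, with its 95% interval (red higher, blue lower, grey not called). CRELD2 and CALR were called higher and PDIA6 lower, while the other 9 genes were not called.

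Among the 37 genes, 7 rose and 8 fell after SLFN5 siRNA and 22 were not called at an adjusted p of 0.05. Those called were 40.5% of the 37, beside 29.6% of all 15640 genes tested. Over all genes 13.3% rose and 16.3% fell. ATF6B, CREB3L2, EDEM1, DERL3, P4HB, CALR and CRELD2 rose, while EIF2AK3, EDEM2, DERL1, DERL2, PDIA6, SEC61B, SSR1 and SSR3 fell. The median log2 change of the 37 was -0.11, beside -0.033 for all genes tested, whose quartiles were -0.39 and 0.37, and the range of the 37 was -0.85 (SSR3) to 1.18 (DERL3). The values of the 2 groups did not overlap for 29 of the 37 genes, 14 of them higher and 15 lower, beside 64.6% of all genes tested. Of the calls over all genes, 45.1% were higher, and 61.4% with libraries scaled by their totals alone, under which 8 of the 37 genes rose and 5 fell. Every role group held genes with positive and genes with negative log2 changes, as the plot of each library shows.

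The calls depend on the trend of variance on expression level, 1 of the ways in which the fit borrows strength between genes. With 2 libraries a group the fit leaves 2 residual degrees of freedom, beside 9.6 prior degrees of freedom taken from the other genes. The variance behind each p-value thus rests more on genes of similar level than on the gene's own libraries. Without the trend, 0 of the 37 genes were called by limma, beside 7.56% of all genes tested, although 15 of the 37 had an unadjusted p under 0.05. The adjusted p of the 15 called genes then ran between 0.065 (ATF6B) and 0.207 (CALR). The fits without a control library returned no finite prior degrees of freedom, so a call kept in them is no measure of stability. ATF6B, CREB3L2, SSR1 and SSR3 kept their call in every alternative but the one without the trend, each left-out library included. The other 11 lost it without at least 1 library, and the adjusted p-values without that library are given with each group.

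**Figure D2:**
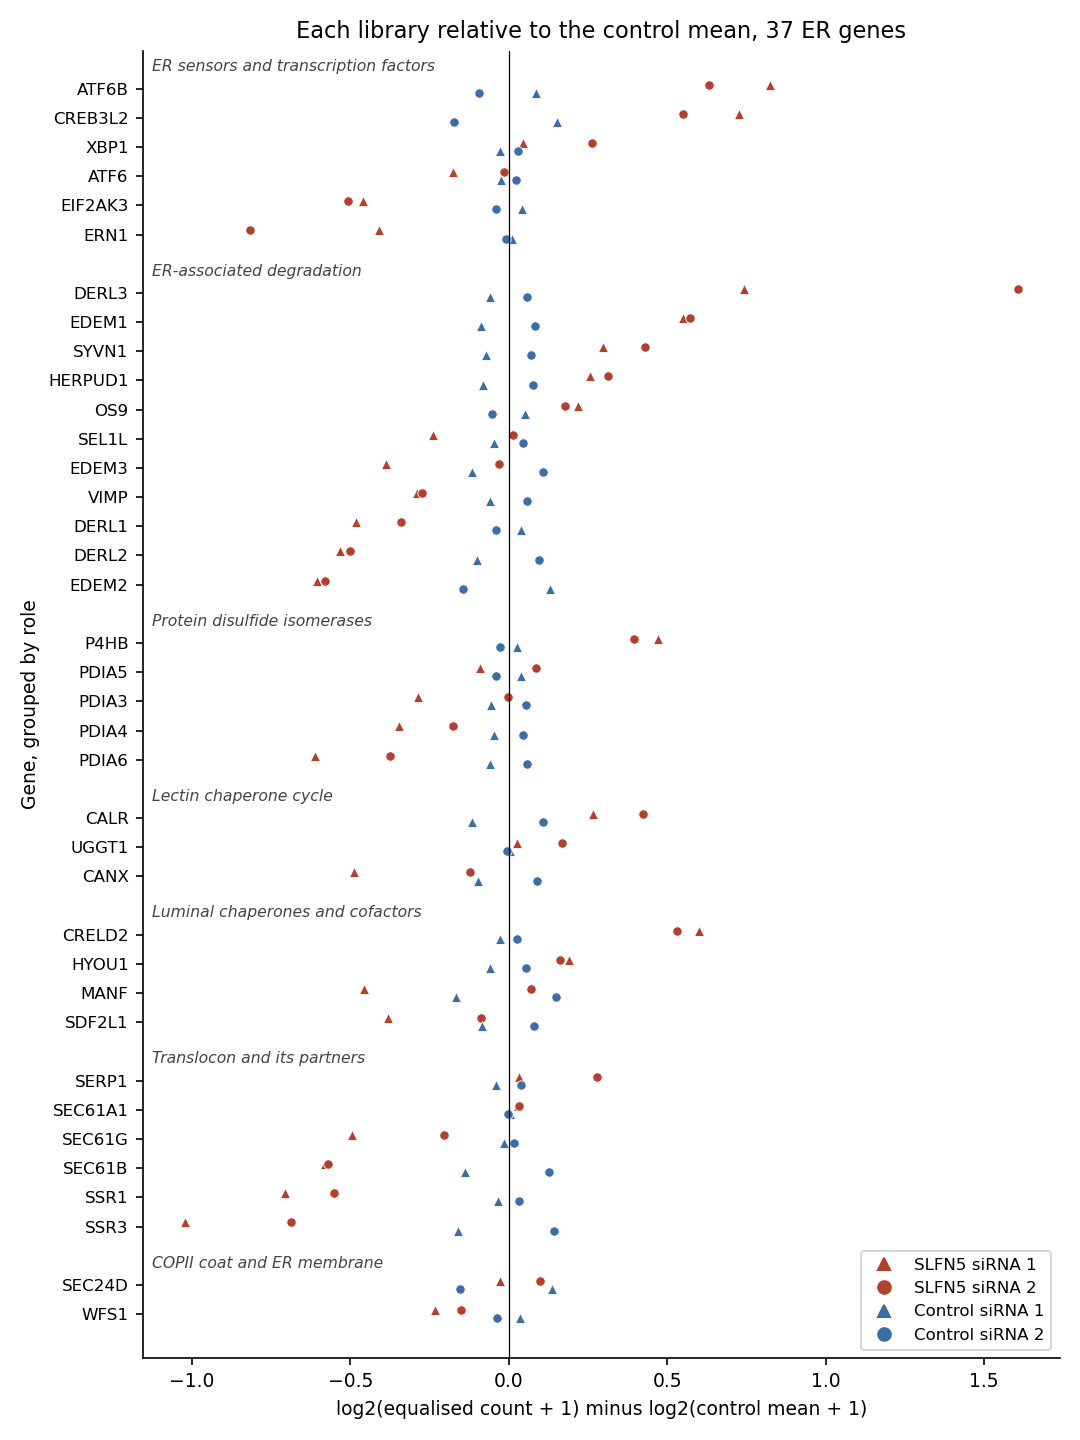
Each of the 4 libraries relative to the control mean for the 37 genes, as log2(equalised count + 1) minus log2(control mean + 1), grouped by role and ordered by change. SLFN5 siRNA libraries are red and control libraries blue, with triangles for library 1 and circles for library 2. For 29 of the 37 genes the red and blue marks do not overlap, 14 with red to the right and 15 with red to the left.

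Among the stress sensors and their transcription factors, ATF6B and CREB3L2 rose, EIF2AK3 fell, and XBP1, ATF6 and ERN1 were not called. ATF6B, a paralog of ATF6 that is cleaved in the same way and is a weaker activator, had 923 and 808 equalised counts in the SLFN5 siRNA libraries, against 554 and 489 in the control libraries. Its groups were well apart, with a log2 change of 0.73 (SE 0.14, adjusted p = 0.00303), and 10.9% of its exon bases are shared with another gene on the same strand. ATF6 had 1397 and 1559 after SLFN5 siRNA, against 1550.5 and 1602 after control siRNA, and its groups overlapped (log2 change -0.10, 95% interval -0.36 to 0.17). The ratio of ATF6B to ATF6 within a library, on the log2 scale, was -0.60 and -0.95 after SLFN5 siRNA, against -1.49 and -1.71 after control siRNA, so that the ratio was higher in both SLFN5 siRNA libraries. CREB3L2, a membrane-bound factor of the CREB3 family known for its role in the secretory capacity of mouse cartilage cells, had 2441 and 2160 after SLFN5 siRNA, against 1642 and 1310 after control siRNA, and both SLFN5 siRNA values lay above both control values (log2 change 0.65, SE 0.14, adjusted p = 0.00424).

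EIF2AK3, which encodes PERK, had 895 and 866 in the SLFN5 siRNA libraries, against 1264 and 1195 in the control libraries. The values within each group were close together, and the mean after SLFN5 siRNA was 71.6% of the control mean (log2 change -0.48, SE 0.12, adjusted p = 0.0125, and 0.0942 without control library 1). Other genes lie opposite 16.95% of its exon bases. ERN1, which encodes IRE1alpha and was the least abundant sensor per kilobase, had 119.5 and 89.9 after SLFN5 siRNA, against 160.0 and 158 after control siRNA. Both SLFN5 siRNA values lay below both control values, and the change was not called (log2 change -0.61, 95% interval -1.13 to -0.092, adjusted p = 0.0733). XBP1 had 2352 and 2736 after SLFN5 siRNA, against 2237 and 2327 after control siRNA, with library 1 of the SLFN5 siRNA group only just above the controls (log2 change 0.15, adjusted p = 0.367). These gene-level values do not separate spliced from unspliced XBP1 mRNA, nor cleaved from full-length ATF6 protein.

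In ER-associated degradation, 2 of 11 genes rose, 3 fell and 6 were not called, and paralogs moved in opposite directions. EDEM1, a mannosidase-like protein that speeds the disposal of misfolded glycoproteins, had 1168 and 1186 after SLFN5 siRNA, against 749 and 845 after control siRNA (log2 change 0.56, SE 0.13, adjusted p = 0.00671). EDEM2, which acts at the first mannose-trimming step, had 636 and 647 after SLFN5 siRNA, against 1059.8 and 876 after control siRNA (log2 change -0.59, SE 0.14, adjusted p = 0.00905). The SLFN5 siRNA libraries were thus above both controls for EDEM1 and below both for EDEM2. The log2 ratio of EDEM1 to EDEM2 was 0.88 and 0.87 in the SLFN5 siRNA libraries, against -0.50 and -0.052 in the control libraries. This and the other ratios are the reported part of 13 gene pairs that were chosen after the values were seen, and 2 libraries against 2 cannot give an exact two-sided permutation p under 0.333. EDEM3, the third paralog, had 1143 and 1462 after SLFN5 siRNA, against 1378 and 1610 after control siRNA, with overlapping groups. Without control library 1 the adjusted p was 0.0602 for EDEM1 and 0.113 for EDEM2.

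The derlins, membrane proteins that help misfolded chains leave the ER, also divided. DERL1 had 2935 and 3238 after SLFN5 siRNA, against 4206 and 3984 after control siRNA, a log2 change of -0.41 (SE 0.11, adjusted p = 0.0157). DERL2 had 672 and 688 after SLFN5 siRNA, against 907 and 1038 after control siRNA, a log2 change of -0.51 (SE 0.13, adjusted p = 0.0138). Both fell with no overlap between groups. Without 1 library the adjusted p of DERL1 was 0.0773 (SLFN5 siRNA library 1 left out), 0.107 (control library 1) and 0.0506 (control library 2), and that of DERL2 was 0.165 without control library 2. With quantile normalisation the adjusted p of DERL1 was 0.111. Scaled by library totals alone, the adjusted p was 0.0967 for DERL1, 0.0518 for DERL2 and 0.0601 for EIF2AK3. DERL3 had 39.96 and 73.6 after SLFN5 siRNA, against 22.5 and 24.5 after control siRNA (log2 change 1.18, SE 0.40, adjusted p = 0.0457). It was the rarest of the 37 genes in control cells, and 87.3% of its exon bases lie opposite SMARCB1, a chromatin remodelling gene with 1165 and 1186 after SLFN5 siRNA, against 1242 and 1052 after control siRNA. Without strand, reads from DERL3 and SMARCB1 cannot be told apart there, and the call was lost in 9 of the 15 alternatives that tested it, with an adjusted p of 0.258, 0.101 and 0.0855 without SLFN5 siRNA library 2, control library 1 and control library 2.

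The ligase complex itself showed no call. SYVN1, the HRD1 ubiquitin ligase, had 240.3 and 264 after SLFN5 siRNA, against 186 and 205 after control siRNA, and all SLFN5 siRNA values were higher (log2 change 0.37, adjusted p = 0.169). SEL1L, its adaptor, had 1587 and 1889.7 after SLFN5 siRNA, against 1813 and 1933 after control siRNA, with overlap (log2 change -0.11, adjusted p = 0.545). HERPUD1, which organises the complex, had 803 and 835 after SLFN5 siRNA, against 635 and 709 after control siRNA, without overlap (log2 change 0.29, adjusted p = 0.134). OS9, the lectin that brings substrates to SEL1L, was also higher in both SLFN5 siRNA libraries without passing the test (4016 and 3906, against 3581 and 3327 in the controls, adjusted p = 0.191). VIMP, the selenoprotein S that recruits the VCP ATPase, had 705 and 713 after SLFN5 siRNA, against 828 and 898 after control siRNA, lower in both libraries and not called (log2 change -0.28, adjusted p = 0.131).

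**Figure D3:**
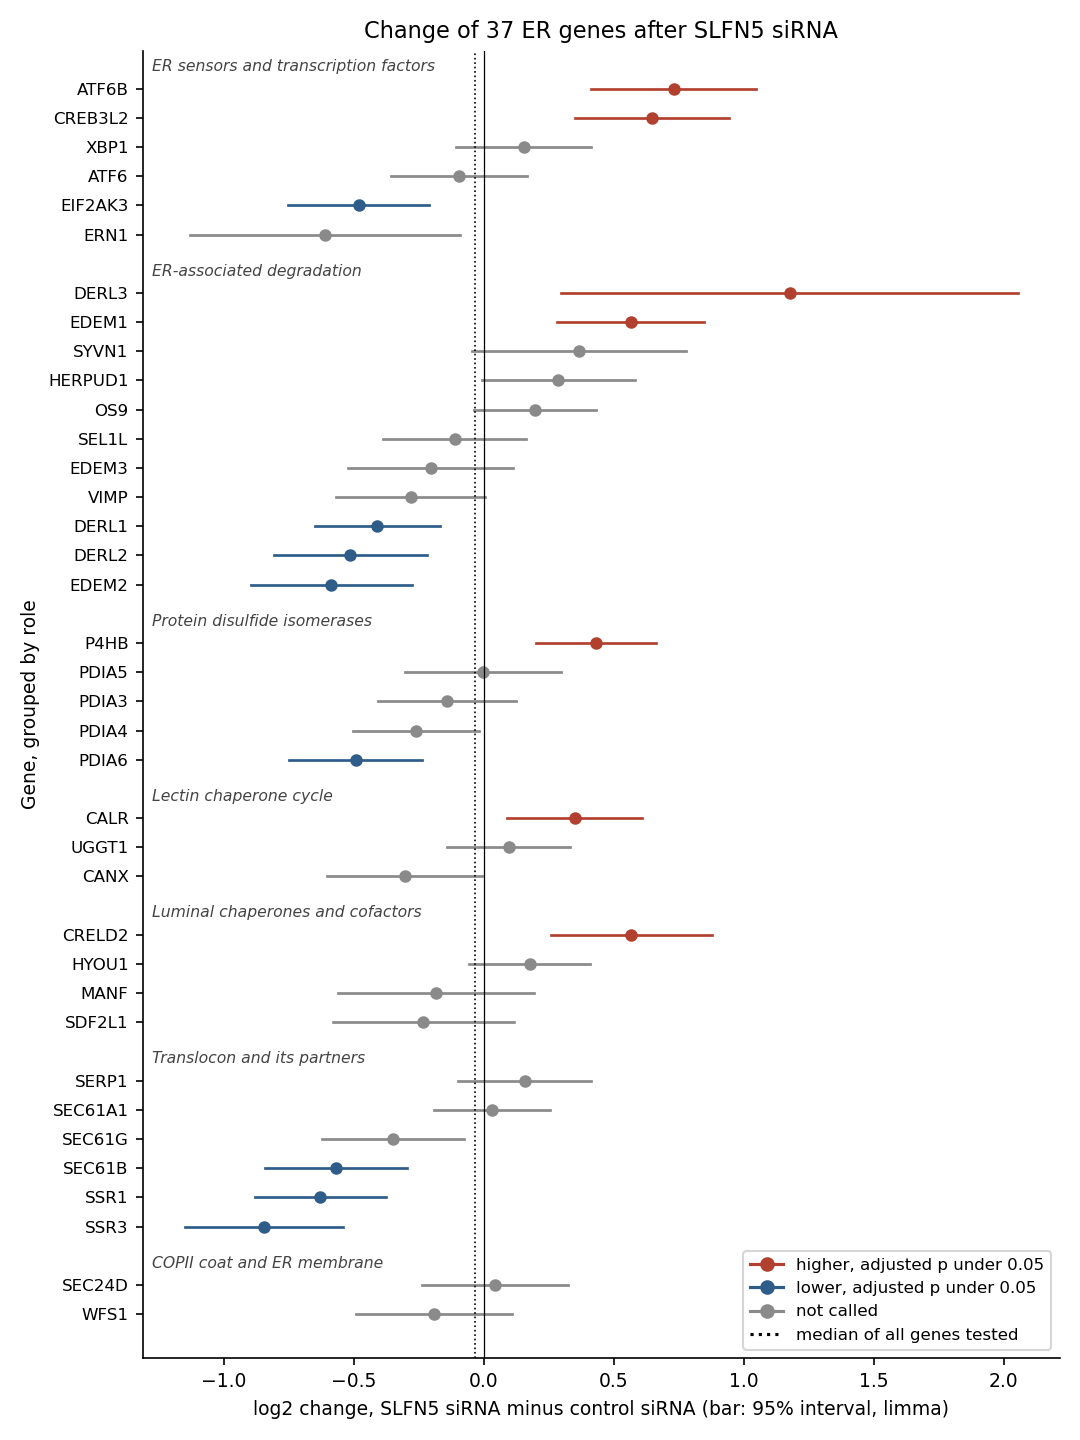
The log2 change of each of the 37 genes, SLFN5 siRNA minus control siRNA, with its 95% interval from limma, grouped by role. Red marks the 7 genes called higher, blue the 8 called lower and grey the 22 not called, and the dotted line is the median of all genes tested (-0.033).

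Of the 5 protein disulfide isomerases, P4HB rose, PDIA6 fell and 3 were not called. P4HB, the founding isomerase and also the beta subunit of collagen prolyl 4-hydroxylase, had 18095 and 17196 after SLFN5 siRNA, against 13305 and 12830 after control siRNA. Its SLFN5 siRNA values stood clear of the controls (log2 change 0.43, SE 0.11, adjusted p = 0.00956). PDIA6, which also binds IRE1 and PERK, had 9584 and 11300 after SLFN5 siRNA, against 14069 and 15230 after control siRNA, below both controls in each library (log2 change -0.49, SE 0.12, adjusted p = 0.00829). The log2 ratio of P4HB to PDIA6 within a library was 0.92 and 0.61 after SLFN5 siRNA, against -0.081 and -0.25 after control siRNA. P4HB thus exceeded PDIA6 in the equalised counts of both SLFN5 siRNA libraries and fell short of it in both control libraries. These counts are not adjusted for gene length. Per kilobase of exon, P4HB lay above PDIA6 in every library. The values were 6946 and 6601 against 2752 and 3244 after SLFN5 siRNA, and 5107 and 4925 against 4039 and 4373 after control siRNA. Without SLFN5 siRNA library 1 the adjusted p was 0.0562 for P4HB and 0.0723 for PDIA6, and without control library 2 it was 0.0797 for P4HB and 0.0532 for PDIA6. With quantile normalisation it was 0.0813 for PDIA6. Part of the exons of each gene lies opposite another transcript, 29.7% for PDIA6 (ATP6V1C2) and 20.3% for P4HB, and ATP6V1C2 had 16.3 and 10.6 after SLFN5 siRNA, against 22.2 and 20.5 after control siRNA. PDIA4 had 10735 and 12085 after SLFN5 siRNA, against 13239 and 14077 after control siRNA, lower without overlap and not called (adjusted p = 0.0975). PDIA3, the isomerase that works with calnexin and calreticulin, and PDIA5 had overlapping groups, with log2 changes of -0.14 (95% interval -0.41 to 0.12) and -0.0018 (-0.30 to 0.30).

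Of the 3 genes of the lectin chaperone cycle, CALR rose, and CANX and UGGT1 were not called. CALR, the soluble lectin calreticulin, had 17883 and 19985 after SLFN5 siRNA, against 13741 and 16025 after control siRNA (log2 change 0.35, SE 0.12, adjusted p = 0.0447). CANX, its membrane-bound counterpart calnexin, had 18445 and 23771 after SLFN5 siRNA, against 24235 and 27550 after control siRNA, and was not called (log2 change -0.30, SE 0.14, adjusted p = 0.117). CALR lay above and CANX below the controls in each SLFN5 siRNA library, and the log2 ratio of CALR to CANX was -0.045 and -0.25 after SLFN5 siRNA, against -0.82 and -0.78 after control siRNA. The rise of CALR was near the threshold, with an adjusted p of 0.0623, 0.209 and 0.35 without SLFN5 siRNA library 1, SLFN5 siRNA library 2 and control library 1, and 0.0747 with TMM scaling. Another gene lies opposite 14.2% of its exon bases. UGGT1, the folding sensor that returns incompletely folded glycoproteins to the lectins, had 4062 and 4484 after SLFN5 siRNA, against 4003 and 3981 after control siRNA, a difference of 0.10 on the log2 scale that was not called (95% interval -0.14 to 0.33).

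Among the luminal chaperones and cofactors, CRELD2 rose and the other 3 genes were not called. CRELD2, a secreted ER-resident protein induced by ER stress, had 678 and 646 after SLFN5 siRNA, against 438 and 454 after control siRNA. The groups were far apart relative to their spread (log2 change 0.57, SE 0.14, adjusted p = 0.0109, and 0.0586 without control library 1). MANF, another small secreted ER stress protein, had 1139 and 1643 after SLFN5 siRNA, against 1392 and 1736 after control siRNA, with overlapping groups (log2 change -0.18, 95% interval -0.56 to 0.19). SDF2L1, part of an ER DNAJ chaperone complex, had 424 and 520.0 after SLFN5 siRNA, against 522 and 584 after control siRNA, just below the controls (adjusted p = 0.304). HYOU1, a large chaperone and nucleotide exchange factor for BiP, had 4879 and 4789 after SLFN5 siRNA, against 4112 and 4448 after control siRNA (log2 change 0.18, adjusted p = 0.241).

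The translocon genes held 3 of the 8 members that fell, and none of the 6 rose by the test. Over all genes tested 13.3% rose and 16.3% fell. The median log2 change of the 6 was -0.46, beside -0.033 for all genes tested. It was -0.078 for the 38 genes on the list of other translocon, signal peptidase and glycosylation genes. SSR3, the gamma subunit of the TRAP complex, had 6072 and 7666 after SLFN5 siRNA, against 11045 and 13619 after control siRNA, and its mean was 55.7% of the control mean, the lowest share of the 37 genes (log2 change -0.85, SE 0.14, adjusted p = 0.00099). SSR1, the alpha subunit, had 1570.4 and 1748 after SLFN5 siRNA, against 2504 and 2619.6 after control siRNA (log2 change -0.63, SE 0.12, adjusted p = 0.00195). Both fell in each SLFN5 siRNA library by more than the spread within either group. SEC61B, the beta subunit of the channel, had 1452 and 1462 after SLFN5 siRNA, against 1969.6 and 2367 after control siRNA (log2 change -0.57, SE 0.12, adjusted p = 0.00552, and 0.0845 without control library 2). SEC61G, the gamma subunit, had 1695 and 2069.7 after SLFN5 siRNA, against 2359 and 2413 after control siRNA. It was lower without overlap and just outside the threshold (log2 change -0.35, adjusted p = 0.0554), which it passed in some alternatives.

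SEC61A1, which forms the pore, had 8268 and 8292 after SLFN5 siRNA, against 8124 and 8086 after control siRNA, and its log2 change was 0.031 (95% interval -0.19 to 0.25). Relative to SEC61A1, SSR3 and SEC61B were lower in both SLFN5 siRNA libraries than in both control libraries. SSR2 and SSR4, TRAP subunits from the list of other translocon genes, were not called. Their log2 changes were 0.023 (adjusted p = 0.898) and -0.070 (adjusted p = 0.681). The log2 ratio of SSR3 to SEC61A1 was -0.45 and -0.11 after SLFN5 siRNA, against 0.44 and 0.75 after control siRNA. That of SEC61B to SEC61A1 was -2.51 and -2.50 after SLFN5 siRNA, against -2.04 and -1.77 after control siRNA. SERP1, a small membrane protein that stabilises chains at the translocon under stress, had 3766 and 4465 after SLFN5 siRNA, against 3580.5 and 3780.4 after control siRNA, with overlap (log2 change 0.16, adjusted p = 0.352). SEC24D, a cargo adaptor of the COPII coat that carries proteins out of the ER, had 2071 and 2264 after SLFN5 siRNA, against 2324 and 1900.4 after control siRNA, again with overlap (log2 change 0.043, adjusted p = 0.839). WFS1, an ER membrane protein mutated in Wolfram syndrome, was slightly lower in both SLFN5 siRNA libraries, at 579.7 and 614, against 699 and 665 in the controls, and was not called (adjusted p = 0.329).

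**Figure D4:**
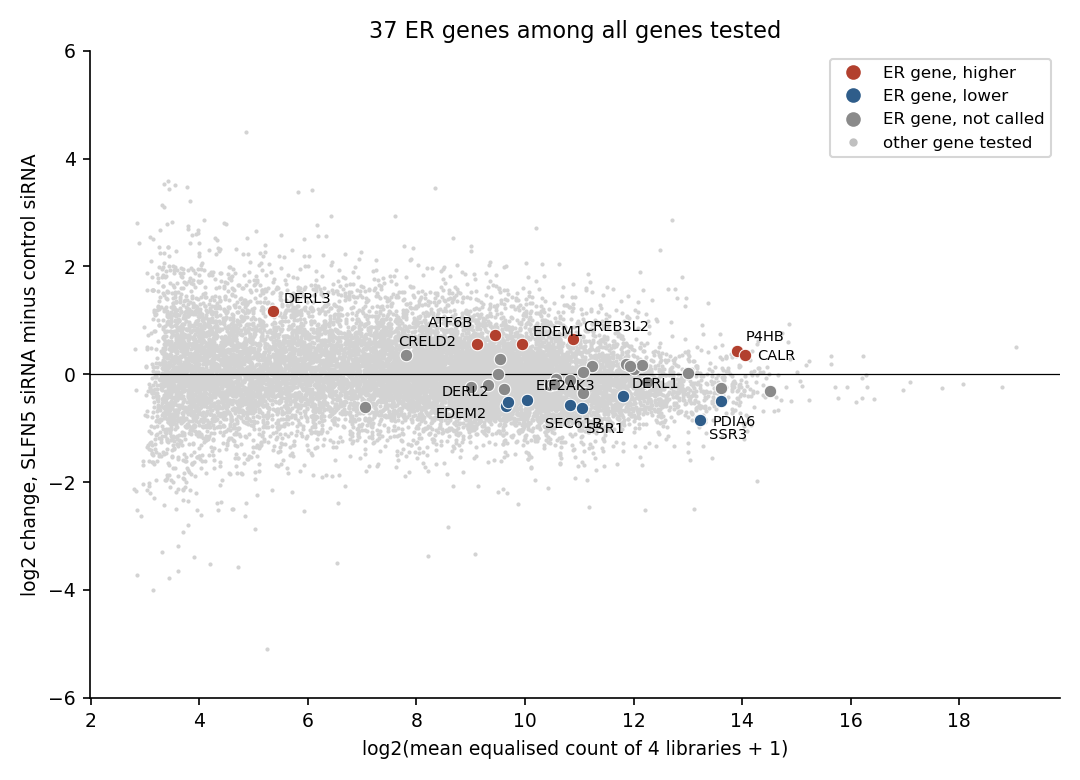
The log2 change, SLFN5 siRNA minus control siRNA, against log2(mean equalised count of the 4 libraries + 1) for all 15640 genes tested (light grey) and the 37 ER genes (red higher, blue lower, dark grey not called). The ER genes lie between -0.85 and 1.18, with DERL3 the rarest among those called and P4HB and CALR the most abundant of those that rose.

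Levels per kilobase, computed from the exon lengths of GENCODE release 29 (GRCh38, not the annotation used by the authors), put 5 chaperones and isomerases on top in both groups. After SLFN5 siRNA the mean equalised count per kilobase was 9950 for CALR, 6774 for P4HB, 4747 for CANX, 3930 for PDIA4 and 2998 for PDIA6. After control siRNA it was 7821 for CALR, 5823 for CANX, 5017 for P4HB, 4705 for PDIA4 and 4206 for PDIA6. CANX and P4HB thus changed places. Per kilobase, CANX had 4148 and 5345 after SLFN5 siRNA, against 5450 and 6195 after control siRNA, and P4HB had 6946 and 6601 after SLFN5 siRNA, against 5107 and 4925 after control siRNA. In the controls the values of P4HB and PDIA4 (4560 and 4849 per kilobase) lay next to each other, with the lower P4HB library close to the higher PDIA4 library. At the other end stood SYVN1, ERN1 and DERL3, with 78.0, 10.7 and 17.02 per kilobase after SLFN5 siRNA, against 60.5, 16.2 and 7.04 after control siRNA.

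The called genes with an ERSE did not share a direction. Most genes with an ERSE or ERSE-II were not called, as was the case over all genes tested, of which 29.6% were called. The calls of CALR, CRELD2 and PDIA6 did not hold in every alternative. Of the 6 ERSE-bearing genes among the 37, CALR and CRELD2 rose, PDIA6 fell, and CANX, SERP1 and XBP1 were not called. HSPA5, HSP90B1 and ERO1LB, the 3 further ERSE-bearing genes on the lists of ER genes examined, were not called either, so the 9 genes ranged between -0.49 (PDIA6) and 0.57 (CRELD2) on the log2 scale. None of the 3 genes with ERSE-II was called, and their log2 changes were 0.29 for HERPUD1, 0.18 for HYOU1 and -0.23 for SDF2L1. Of 13 listed ER genes with the TGACGTGG core, 2 rose, 5 fell and 6 were not called. SSR3 was the member of this group that fell, and HYOU1 the member that was not called.

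The other genes of these pathways were described from 7 lists holding 168 genes, of which 161 were tested. In them 19 genes rose, 34 fell and 108 were not called, so that 32.9% were called, and the median log2 change was -0.076. Of all genes tested 29.6% were called, 13.3% higher and 16.3% lower, with a median of -0.033. The counts of the single lists below are to be read beside these shares, and no list was tested as a set. HSPA5 had 5870.4 and 8481 after SLFN5 siRNA, against 5787 and 8597 after control siRNA. Its values overlapped fully between groups (log2 change 0.0005, 95% interval -0.42 to 0.42). HSP90B1, the ER paralog of HSP90, had 10019 and 13473 after SLFN5 siRNA, against 13259 and 15008 after control siRNA, with overlap (log2 change -0.28, adjusted p = 0.161). DNAJB9, a BiP cochaperone that restrains IRE1, had 205 and 307 after SLFN5 siRNA, against 501 and 681 after control siRNA, and fell (log2 change -1.22, SE 0.22, adjusted p = 0.00161). In the list of other chaperones, cochaperones and oxidases 5 of 30 genes rose and 6 fell. ERO1L, the oxidase that recharges P4HB, rose the most in that list, with 1694 and 1958 after SLFN5 siRNA, against 562 and 656 after control siRNA (log2 change 1.58, adjusted p = 2.29e-05). DNAJC10, a disulfide reductase, also rose (log2 change 0.73), and FKBP14, a prolyl isomerase, fell (-1.04).

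In the list for the PERK and ATF4 branch, which also holds the other eIF2alpha kinases and EIF2S1, the gene of eIF2alpha itself, 2 of 15 genes rose and 3 fell. EIF2S1 was among those that fell (log2 change -0.82, adjusted p = 0.000575) and is named here after its value was seen. ATF4 had 4946 and 5473 after SLFN5 siRNA, against 5477 and 5259 after control siRNA, with overlap (log2 change -0.045). DDIT3, which encodes CHOP, had 305 and 444 after SLFN5 siRNA, against 249 and 317 after control siRNA, again with overlap (log2 change 0.39, adjusted p = 0.193). The paired eIF2alpha phosphatase subunits moved apart. PPP1R15A, the stress-induced subunit, rose, with 1029.5 and 1178 after SLFN5 siRNA, against 565 and 672 after control siRNA (log2 change 0.84, adjusted p = 0.0013), and PPP1R15B, the constitutive one, fell, with 1126 and 1172 after SLFN5 siRNA, against 2362 and 2595 after control siRNA (log2 change -1.11, adjusted p = 7.03e-05). TRIB3, a pseudokinase induced by this branch, rose (log2 change 1.71) and CHAC1 fell (-0.99). Of 14 other stress transcription factors and regulators tested, CREB3 (0.40) and CREB3L4 (0.98), relatives of CREB3L2, rose and none fell.

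In the list of other degradation genes 5 of 37 rose and 6 fell. ERLIN1 and ERLIN2, which form a complex on the ER membrane, rose by 1.14 and 1.13 on the log2 scale, RNF139, an ER ubiquitin ligase, had a log2 change of -1.45, and YOD1, a deubiquitinase that works with VCP, had one of -0.94. VCP, the ATPase that extracts substrates, had 12581 and 13395 after SLFN5 siRNA, against 15845 and 15365 after control siRNA, lower without overlap and not called (adjusted p = 0.0798). In the list of other translocon, signal peptidase and glycosylation genes 2 of 38 rose and 10 fell. GANAB, the catalytic subunit of glucosidase II that trims glucose for calnexin and calreticulin binding, had the largest rise of the called genes named here. It had 7103 and 6944 after SLFN5 siRNA, against 1893 and 1888 after control siRNA (log2 change 1.89, SE 0.10, adjusted p = 1.97e-06). CAMLG also rose (0.51), while SPCS3, a signal peptidase subunit (-1.32), and SEC61A2, the second pore gene (-1.03), fell.

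In the list of other COPII genes 1 of 15 rose and 3 fell. SEC23A, a coat subunit that pairs with SEC24 proteins, fell to 1739 and 1820.4 after SLFN5 siRNA, against 4212 and 3617 after control siRNA (log2 change -1.13), SAR1B fell (-0.67) and SEC16A rose (0.37). Of 12 tested genes for ER calcium pumps, channels and binding proteins, 2 rose and 6 fell, with a median log2 change of -0.44. ITPR3 (0.76) and ITPR2 (0.32), inositol trisphosphate receptors, rose, and STIM2, a sensor of ER calcium (-1.17), and SELT (-0.97) fell. Without the variance trend, DNAJB9, DNAJC10, TRIB3, PPP1R15A, ERLIN1, YOD1, SAR1B, ITPR3, STIM2 and SELT lost their call (limma adjusted p 0.0518 to 0.0748). So did CREB3, CREB3L4, CAMLG, ITPR2, SEC16A and SEC61A2. ERO1L, FKBP14, PPP1R15B, CHAC1, ERLIN2, RNF139, GANAB, SPCS3 and SEC23A kept theirs in that setting. Without 1 library the adjusted p of some genes named from these lists passed 0.05, at the most 0.253 for CREB3, 0.244 for CAMLG, 0.231 for ITPR2, 0.172 for SEC16A and 0.147 for CHAC1 (each without a control library), 0.0811 for CREB3L4 (without control library 1) and 0.0653 for SEC61A2 (without SLFN5 siRNA library 1).

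The spread within groups was not the same for all genes. The labels give the libraries numbered 1 in both groups one code and those numbered 2 another, without saying what the codes mark. In both groups the library numbered 2 had the higher value for 22 of the 37 genes (59.5%) and the lower value for 6. The share higher in both was 41.6% of the other ER genes and 29% of all genes tested. Lower in both were 35 of the 161 other ER genes and 5088 of the 15640 genes tested. HSPA5, outside the 37, and MANF, CANX and SSR3 within them were among the genes that differed most between libraries of a group. HSPA5 in library 2 was 1.44 times library 1 after SLFN5 siRNA and 1.49 times after control siRNA, MANF 1.44 and 1.25 times, CANX 1.29 and 1.14 times, and SSR3 1.26 and 1.23 times.

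**Figure D5:**
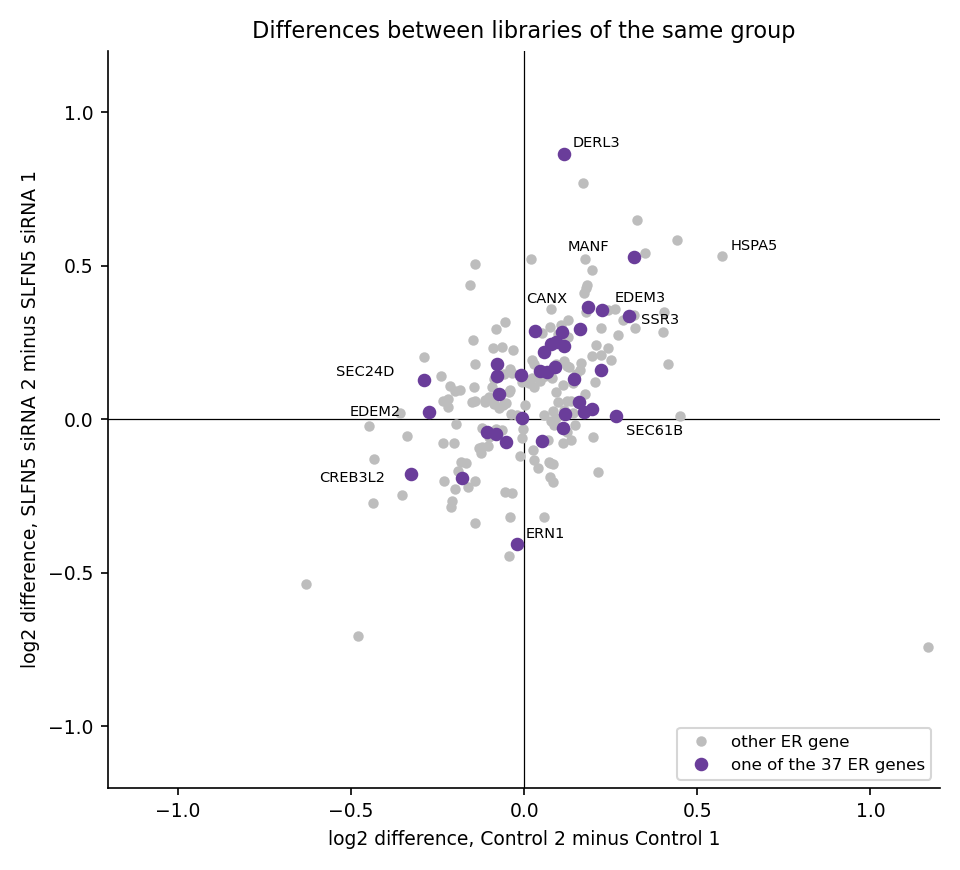
The log2 difference between library 2 and library 1 of each ER gene within the SLFN5 siRNA group (vertical axis) and within the control group (horizontal axis), for the 37 genes (purple) and the other ER genes (grey). MANF, SSR3, EDEM3, CANX and HSPA5 lie in the upper right, higher in library 2 of both groups, and 1 other ER gene lies outside the axes.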

How the data were processed

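Per the labels' protocols, poly(A)-selected libraries (TruSeq v2, which does not mark strand) were sequenced as single-end reads. Per the submitters' processing notes, the authors used edgeR and hg19. The aligner, annotation and counting rules were not given in the sources used here. What the authors deposited is 1 table whose values are a normalised signal. Each of the 230636 deposited values could be inverted to a whole count (tolerance 1e-06) as an equalised count of the authors' edgeR, and recovered totals ran between 13187517 and 31905328.

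Genes that reached 10 in 2 or more libraries entered limma 3.58.1 (R 4.3.3) on log2(value + 1), with a trend of variance on level and Benjamini-Hochberg adjustment over all 15640 genes at 0.05. Fold changes are on that log2 scale, which understates changes of low genes. Besides this fit, 16 alternatives were run. Libraries of a group differed beyond counting noise, with a chi-square of 15.9 for each degree of freedom in both groups.

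The members and lists were chosen with earlier results of these data known. All members are reported. From each other list, the 2 called genes with the largest rise and the 2 with the largest fall are named, besides HSPA5, HSP90B1, DNAJB9, ATF4, DDIT3 and VCP. EIF2S1, SSR2 and SSR4 were added after the values were seen. Promoters were RefSeq sequences (GRCh38.p14), and 37 of 43 member promoters matched a GENCODE transcript at their downstream end. A few marker genes are not reported here.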

Additional observations from a re-analysis of the deposited data

How the results depend on the processing

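SLFN5 stayed called lower in all 16 alternatives, and no called gene of the 37 changed direction in any of them. The groups of these called genes did not overlap, so leaving out 1 library could not turn their direction. Against 7 genes of the 37 called higher, the count was 0 without the variance trend and 3 to 5 without 1 library. Against 8 called lower, it was 0 without the trend, 5 with library totals alone, 13 with the replicate block and 4 to 10 without 1 library. Of the other ER genes, against 19 higher and 34 lower, 3 and 9 were called without the trend. Their count of higher calls was 32 with quantile normalisation, 30 with library totals and 34 with the replicate block, and without 1 library it ran between 11 and 17. Against 2086 genes higher and 2544 lower over the whole table, 672 and 510 were called without the trend, and 1353 to 1791 and 1588 to 2300 without 1 library. Library totals alone gave a median log2 change of all genes of 0.091, against -0.033, and a share of calls that were higher of 61.4%, against 45.1%. The fits without a control library returned no finite prior degrees of freedom, and in each fit without 1 library the lone library is assumed to vary like the other group.

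Only genes that were not called turned direction. The log2 change with quantile normalisation was 0.017 for ATF6, 0.015 for SEL1L, 0.055 for PDIA3, 0.045 for PDIA5 and 0.16 for ATF4. With library totals it was 0.027 for ATF6, 0.0099 for SEL1L, 0.12 for PDIA5 and 0.078 for ATF4. PDIA5 also turned with TMM (0.034), median-of-ratios (0.027) and thinned counts (0.020). Without 1 library the value ran between -0.24 and 0.014 for SEL1L, -0.091 and 0.088 for PDIA5, -0.45 and 0.080 for MANF, -0.10 and 0.19 for SEC24D, -0.28 and 0.29 for HSPA5, and -0.12 and 0.028 for ATF4. Some members that were not called passed the threshold in other settings. ERN1, OS9 and HYOU1 did so with quantile normalisation and HERPUD1 with library totals alone. SEC61G did so with a filter of 50 in at least 2 libraries and with limma-voom on recovered counts. The cause of these changes was not tested.

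Titles share a code between same-numbered libraries, but the labels do not say what it marks, and with 2 pairs the replicate numbers were not taken to pair the libraries. The differences between libraries 1 and 2 had a correlation of 0.19 between groups over 15640 genes and of 0.48 over the 37. The replicate block called 15 of the 15 genes again and 7 more, ERN1, HERPUD1, OS9, VIMP, PDIA4, CANX and SEC61G, with adjusted p-values between 0.00285 (SEC61G) and 0.0496 (OS9). It called 42.9% of all genes tested, beside 29.6% without the block. Depth limits DERL3 most, with 39 and 64 recovered counts after SLFN5 siRNA, against 39 and 17 after control siRNA.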
